A study of Mus musculus with 9 samples.

Results

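The data cover 10 genes of cystine uptake and of the antioxidant program that the transcription factor NRF2 directs. They are Slc7a11, Gclm, Gclc, Nqo1, Hmox1, Srxn1, Txnrd1, Nfe2l2, Keap1 and Gsr, taken from the deposited read counts by gene symbol out of 53465 genes. Each symbol stood on 1 row, and all 10 genes passed the filter on low values that left 11950 genes for testing. The cells were bone marrow-derived macrophages (BMDMs), which are macrophages grown from the marrow of male wild-type C57BL/6 mice (C57bl6/J in the study's methods) with the growth factor CSF1 at 50 ng/ml. They were left untreated (UNX), or were given medium conditioned by pulmonary artery adventitial fibroblasts of control calves (CO-CM) or of neonatal calves with hypoxia-induced pulmonary hypertension (PH-CM), with 3 libraries in each group. No gene was deleted and no transgene was carried in any group. The conditioned media came from bovine cells, each was a pool from 5 fibroblast populations, and the 3 libraries of a group were repeats of the experiment. Whether the same pool served all 3 repeats is not stated. The spread between libraries therefore cannot be read as variation between calves. The time in conditioned medium is 18 h in the study's methods, and 16 h and 24 h in different fields of the labels. Per those methods, the fibroblasts grew in DMEM with bovine calf serum, and conditioned medium received 10% fetal bovine serum before use. No library came from cells given unconditioned fibroblast medium. In comparisons with UNX, base medium, serum and fibroblast products therefore cannot be told apart.

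Cells take up cystine, the oxidized pair of cysteines, through system xc-, an exchanger made of the light chain xCT (Slc7a11) and the heavy chain 4F2hc (Slc3a2), which exports glutamate in return. Cystine is reduced to cysteine, and cysteine is joined to glutamate by glutamate-cysteine ligase (Gclc and Gclm) in the rate-limiting step of glutathione synthesis. NRF2 (Nfe2l2) is held in the cytoplasm and marked for degradation by KEAP1 until oxidants or electrophiles modify KEAP1. It then enters the nucleus, pairs with a small MAF protein and switches on genes that carry an antioxidant response element. Since NRF2 is controlled mainly at the level of the protein, its mRNA is not a measure of its activity. In macrophages the same genes serve defence against their own oxidative burst and the handling of heme from engulfed red cells. In bulk RNA a higher level per cell and a larger share of expressing cells cannot be told apart.

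Reads assigned to genes ranged from 62017933 to 84314201 a library. The 9 macrophage markers examined, among them Cd68, Adgre1, Csf1r and Lyz2, were all present in every library, and their summed level went from 12721 to 13658 CPM (reads of a gene scaled to a common library total) in UNX to 19194 to 20138 in CO-CM and 22054 to 23847 in PH-CM. Most of that sum was Lyz2. Of the 9 markers, 7 were called higher and 1 lower in PH-CM against UNX, and 5 higher and 2 lower in CO-CM. Over all genes tested, 31.3% were called higher and 31.7% lower in PH-CM, and 28% and 28.9% in CO-CM. Mrc1, the mannose receptor, stood at 817 to 1045 CPM in UNX, 169 to 185 in CO-CM and 547 to 599 in PH-CM. Cd14, the endotoxin co-receptor, stood at 287 to 335, 158 to 189 and 735 to 890 CPM. The neutrophil markers summed to at most 4.32 CPM with Ly6g at 0 in every library, and T cell, B cell, mast cell, dendritic cell and erythroid markers each summed to at most 0.805 CPM. The 7 fibroblast markers summed to 194 to 245 CPM in UNX, 262 to 314 in CO-CM and 244 to 331 in PH-CM, nearly all of it collagen mRNA, with Lum at most 0.0644 CPM. Their part in the results was not tested.

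Slc7a11 was the member that changed most under PH-CM. It rose about 23.5-fold under PH-CM against UNX and 17.1-fold against CO-CM, and 1.38-fold under CO-CM. Of the other members, Nfe2l2 rose under PH-CM, Gclc and Txnrd1 fell under both media, and Hmox1 and Gsr fell under CO-CM. The 7 enzymes other than the transporter (Gclm, Gclc, Nqo1, Hmox1, Srxn1, Txnrd1 and Gsr) had log2 fold changes from -0.62 to 0.39 under PH-CM and from -0.85 to -0.06 under CO-CM. None of these 7 was called higher than in UNX in either medium, although other settings gave such a call to Gclm and Srxn1 in PH-CM.

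A gene was called changed at a false discovery rate (FDR) of at most 0.05 in edgeR's quasi-likelihood test with a fold of at least 1.2, over all 11950 genes. In PH-CM against UNX, 2 of the 10 members were called higher and 2 lower, where 63% of all genes tested were called, 31.3% higher and 31.7% lower. In CO-CM against UNX, 1 was higher and 4 lower, where 57% of all genes were called, 28% higher and 28.9% lower. In PH-CM against CO-CM, 5 were higher and 0 lower, where 27.1% of all genes were called, 12.2% higher and 15% lower. All 10 log2 fold changes were above 0 in that comparison, where the median over all genes tested was -0.01. None was therefore lower at an unadjusted p either. The members were read in the same libraries, so their signs are not independent of each other. The libraries of the groups did not overlap for 6, 8 and 5 of the 10 members in these comparisons, as for 77.7%, 72% and 50.2% of all genes. The median log2 fold change of the members was -0.14, -0.41 and 0.41 in these comparisons, beside medians of 0.01, 0.00 and -0.01 over all genes tested. Both comparisons with UNX share its libraries, and both comparisons with CO-CM share those of CO-CM, so the counts are not independent of each other.

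**Figure D1:**
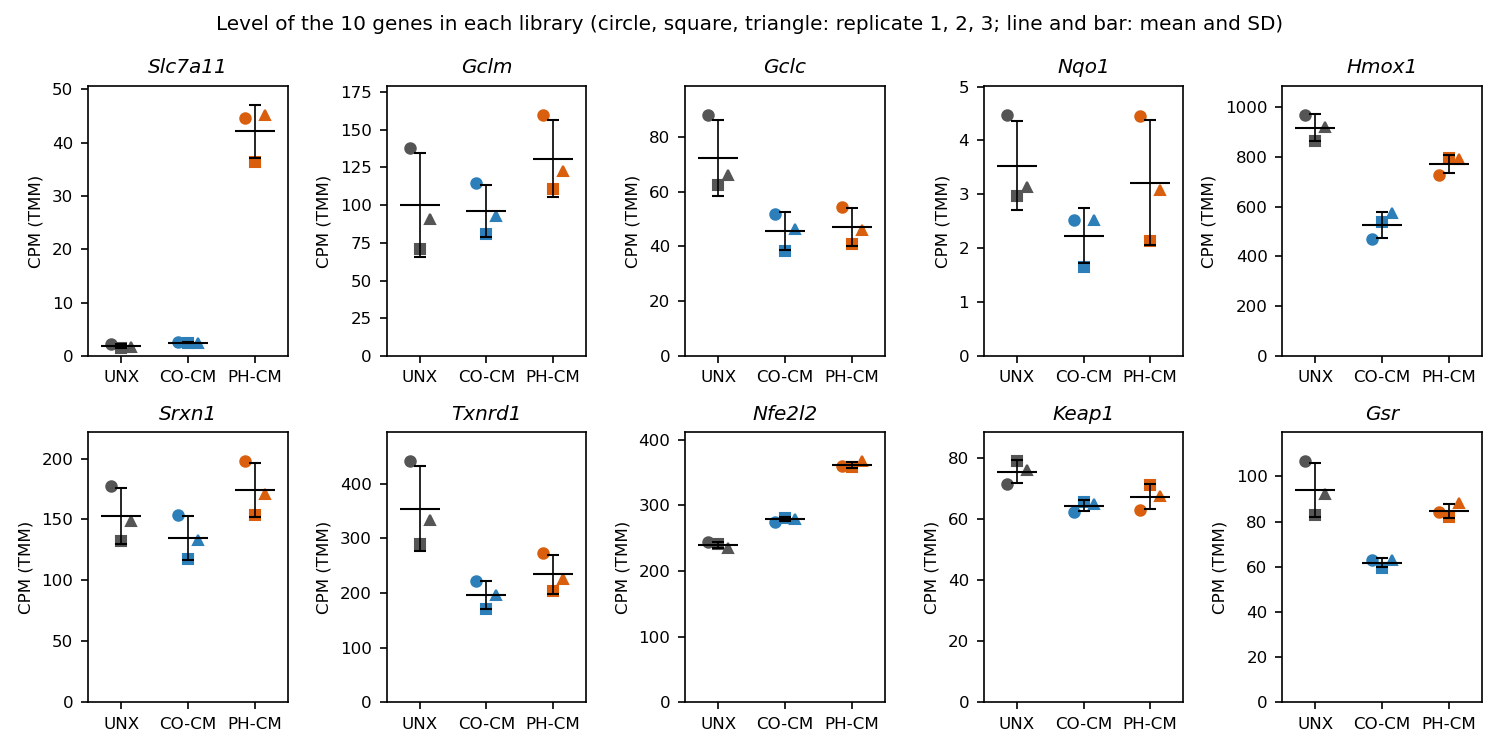
Level of each of the 10 genes in CPM after TMM scaling (y axis, linear from 0) in the 9 libraries, by group (x axis). Symbols are replicates and the line with its bar is the mean and SD of 3 libraries. Slc7a11 lies between 1.51 and 2.60 CPM in the 6 UNX and CO-CM libraries and between 36.4 and 45.2 CPM in the 3 PH-CM libraries, while Gclm and Nqo1 overlap between PH-CM and UNX.

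Slc7a11 (ENSMUSG00000027737) spans chr3:49892526-50443614 on the minus strand of GRCm38, with 13 merged exons. In UNX its level was 2.22, 1.51 and 1.68 CPM in replicates 1, 2 and 3, from 144, 114 and 144 reads. In CO-CM it was 2.60, 2.36 and 2.42 CPM, from 178, 158 and 172 reads. In PH-CM it was 44.7, 36.4 and 45.2 CPM, from 3005, 2264 and 2856 reads. All PH-CM libraries lay far above every other library, and the lowest CO-CM library lay just above the highest UNX library. The log2 fold change was 4.56 (SE 0.14, FDR 1.57e-09) in PH-CM against UNX and 4.10 (SE 0.14, FDR 2.57e-08) in PH-CM against CO-CM. By size of rise, the gene ranked 20th of 11950 in the first of these and 18th in the second. In the 3 same-numbered pairs of libraries, the log2 ratio of PH-CM to CO-CM was 4.10, 3.95 and 4.22.

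The rise of Slc7a11 under CO-CM was small. Its log2 fold change was 0.46 (SE 0.15, FDR 0.0184), which ranked 2351st of 11950. The same-numbered ratios were 0.23, 0.65 and 0.53 on the log2 scale. This call was lost without UNX replicate 2 (0.33, FDR 0.0827), without UNX replicate 3 (0.39, FDR 0.0748), without CO-CM replicate 1 (0.42, FDR 0.0533), or without all libraries numbered 2 (0.38, FDR 0.059) or 3 (0.42, FDR 0.125). It was also lost in limma on log2(RPKM + 0.1), where the pseudocount compresses so low a gene (0.23, FDR 0.129).

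On a scale that corrects for gene length, the deposited RPKM, Slc7a11 was the lowest of the 10 members in UNX (0.133 ± 0.029, SD, n = 3) and in CO-CM (0.173 ± 0.012). In PH-CM it reached 2.99 ± 0.37 RPKM, above Nqo1 at 2.06 ± 0.77 with overlapping ranges, and below the other 8. These values divide by all 13.9 kb of annotated exon, whereas its longest coding transcript has 9223 bases, so they depend on which exons are annotated and are not the level of any one transcript. Slc3a2, the heavy chain that also serves other amino acid transporters, stood at 504, 409 and 449 CPM in UNX and 497, 418 and 443 CPM in CO-CM. In PH-CM it was 626, 590 and 630 CPM, higher than in all other libraries. Its log2 fold change was 0.44 in PH-CM against UNX (FDR 6.76e-04) and 0.44 against CO-CM (FDR 0.00195), and -0.00 in CO-CM against UNX (FDR 0.966). Per length, heavy chain mRNA exceeded light chain mRNA by 894 to 1069 times in UNX, 698 to 753 times in CO-CM and 55.0 to 63.9 times in PH-CM. None of these ranges overlap, and with 3 libraries against 3 an exact two-sided permutation test can go no lower than its value here, p = 0.10.

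The promoters of 3 members are shown because they carry the largest rise (Slc7a11), the factor itself (Nfe2l2) and the member with most matches (Srxn1). Each is the 250 bases before the RefSeq start on GRCm38.p6, read on the gene's strand, at chr3:50443614-50443863 (minus), chr2:75704664-75704913 (minus) and chr2:152105274-152105523 (plus). Capitals mark matches, on either strand, to the antioxidant response element core TGACNNNGC, the AP-1 site TGANTCA or the C/EBP-ATF response element TGATGNAA, which ATF4 and its partners can bind.
Slc7a11: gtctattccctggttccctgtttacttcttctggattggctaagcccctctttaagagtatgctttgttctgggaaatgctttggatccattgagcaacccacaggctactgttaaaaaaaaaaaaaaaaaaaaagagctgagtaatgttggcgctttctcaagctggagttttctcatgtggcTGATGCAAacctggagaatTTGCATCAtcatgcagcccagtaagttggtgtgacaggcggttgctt
Nfe2l2: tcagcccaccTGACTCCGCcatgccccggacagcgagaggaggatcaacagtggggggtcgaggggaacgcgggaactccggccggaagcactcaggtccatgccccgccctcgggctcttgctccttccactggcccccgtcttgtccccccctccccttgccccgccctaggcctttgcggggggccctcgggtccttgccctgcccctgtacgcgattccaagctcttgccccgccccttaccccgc
Srxn1: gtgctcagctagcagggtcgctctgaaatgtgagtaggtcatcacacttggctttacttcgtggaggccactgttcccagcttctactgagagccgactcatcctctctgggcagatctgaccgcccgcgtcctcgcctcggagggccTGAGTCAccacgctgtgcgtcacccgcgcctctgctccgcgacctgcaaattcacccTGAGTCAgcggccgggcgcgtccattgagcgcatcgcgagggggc
In these sequences the capitals in Slc7a11 are 2 C/EBP-ATF matches, starting at -66 and -47 when the start site is counted as 0. The capitals in Nfe2l2 are 1 antioxidant response element core at -240, and those in Srxn1 are 2 AP-1 matches at -102 and -45, which match on both strands. Over 32851 promoters of 300 bases, from 250 before to 50 after the start, 12.4% held the antioxidant response element core, 7.81% the AP-1 site and 3.97% the C/EBP-ATF element. The core and the AP-1 site can overlap in letters. As searched, the core begins with TGAC. Stretches that begin with TGAG, such as TGAGTCAgc at -45 in Srxn1, were therefore not counted as the core. Of the 7 members with a promoter in the table, 4 held the core (Nfe2l2, Srxn1 at 28 after its start, Gclm at -134 and a second promoter of Txnrd1 at -92), 1 the AP-1 site and 1 the C/EBP-ATF element. Counted by promoter, as the shares over all promoters are, 4 of the 9 promoters of these members held the core. By the same count 1 held the AP-1 site and 1 the C/EBP-ATF element. Keap1 and Nqo1 held none of these letters in this window. The letters of the C/EBP-ATF element were shortened to those given after the Slc7a11 sequence had been seen.

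The 2 subunits of glutamate-cysteine ligase did not move together. Gclc (chr9:77754535-77794485, plus) encodes the catalytic subunit. It stood at 88.0, 62.3 and 66.2 CPM in UNX, 52.0, 38.2 and 46.2 CPM in CO-CM and 54.3, 40.8 and 46.0 CPM in PH-CM. Every library in conditioned medium lay below every UNX library. Its log2 fold change was -0.62 (SE 0.15, FDR 0.00371) in PH-CM and -0.67 (SE 0.15, FDR 0.00266) in CO-CM against UNX, and it kept both calls in all 25 other settings tried. Between the media it was 0.05, with a 95% confidence interval from -0.29 to 0.39.

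Gclm (chr3:122245557-122270732, plus) encodes the modifier subunit, which lowers the enzyme's sensitivity to feedback by glutathione. Its levels were 138, 71.2 and 90.9 CPM in UNX, 115, 80.6 and 93.0 CPM in CO-CM and 160, 110 and 122 CPM in PH-CM. The groups overlapped, since replicate 1 was high and replicate 2 low in each of them. The log2 fold change was 0.39 (95% interval -0.11 to 0.89, FDR 0.141) in PH-CM against UNX and 0.45 (interval -0.06 to 0.95, FDR 0.148) against CO-CM, and neither passed. When the fit took the replicate number as a blocking term both were called higher, at 0.42 (FDR 2.45e-04) and 0.44 (FDR 4.21e-04), and leaving out the libraries numbered 1 gave both calls, with and without the block. Leaving out UNX replicate 1 alone also gave a call against UNX (0.68, FDR 0.00636), while without UNX replicate 2 the change shrank to 0.18 (FDR 0.450), the lowest of all settings. Between the media the settings ranged from 0.29 to 0.59, with FDR up to 0.394. The call as higher came in 7 of 25 other settings between the media and in 5 of 25 against UNX. Without block or left-out replicates, edgeR's exact test (0.45, FDR 0.0139) and a fit of only the 2 groups (FDR 0.0455) called the difference between the media. Dropping the filter gave both calls (FDR 0.00714 between the media, 0.0233 against UNX). The change under CO-CM against UNX was -0.06 and took either sign between settings. Gclm shares 296 bases of exon with Gm17494 on the other strand and 244 with the pseudogene Gm6061. These were assigned 102 and 0 reads in all libraries.

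Dividing Gclm by Gclc within each library removes the library's scaling. The ratio of Gclm to Gclc in RPKM was 0.940, 0.684 and 0.823 in UNX. It was 1.32, 1.26 and 1.204 in CO-CM and 1.76, 1.62 and 1.59 in PH-CM. The means were 0.816 ± 0.128, 1.26 ± 0.06 and 1.66 ± 0.09 (SD, n = 3), and no range overlapped another. The exact two-sided permutation test gave p = 0.10 for each of the 3 comparisons, the smallest that 3 libraries against 3 allow.

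Hmox1 (chr8:75093621-75100589, plus) encodes heme oxygenase 1, which opens heme into biliverdin, carbon monoxide and iron. It was the most abundant member per length in every group, at 540 ± 37 RPKM in UNX, 294 ± 25 in CO-CM and 436 ± 15 in PH-CM (SD, n = 3). In CPM it read 969, 864 and 922 in UNX, 469, 537 and 573 in CO-CM and 728, 795 and 793 in PH-CM. The 3 groups did not overlap, with CO-CM lowest and UNX highest. Hmox1 fell under CO-CM by 0.80 on the log2 scale (SE 0.08, FDR 6.47e-06) and was higher in PH-CM than in CO-CM by 0.55 (SE 0.08, FDR 3.11e-04). In PH-CM against UNX the change of -0.25 had an FDR of 0.0126 but lay just short of the 1.2-fold limit. It passed that limit in 9 of 25 other settings, among them scaling by library size alone (-0.31).

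Gsr (chr8:33652523-33698163, plus) encodes glutathione reductase, which returns oxidized glutathione to its reduced form. It stood at 107, 82.9 and 92.0 CPM in UNX, 63.3, 59.5 and 63.0 in CO-CM and 84.3, 82.0 and 88.1 in PH-CM. CO-CM lay below both other groups, and those overlapped. Gsr fell under CO-CM by 0.60 on the log2 scale (SE 0.08, FDR 6.74e-05) and was higher in PH-CM than in CO-CM by 0.45 (SE 0.08, FDR 0.00136). PH-CM against UNX gave -0.15 (95% interval -0.32 to 0.03, FDR 0.118).

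Txnrd1 (chr10:82833951-82897712, plus) encodes thioredoxin reductase 1, the cytosolic selenoenzyme that keeps thioredoxin reduced. Its levels were 441, 289 and 333 CPM in UNX, 223, 171 and 197 in CO-CM and 273, 203 and 226 in PH-CM. All UNX libraries lay above all others, and the media overlapped. It fell by 0.60 on the log2 scale under PH-CM (SE 0.16, FDR 0.00574) and by 0.85 under CO-CM (SE 0.16, FDR 7.47e-04). Without the libraries numbered 3 the PH-CM call was lost (-0.61, FDR 0.0575). Between the media the difference was 0.25 (95% interval -0.10 to 0.60, FDR 0.240).

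Srxn1 (chr2:152105516-152111376, plus) encodes sulfiredoxin, which repairs overoxidized peroxiredoxins. It stood at 178, 132 and 149 CPM in UNX, 154, 118 and 133 in CO-CM and 198, 154 and 171 in PH-CM. PH-CM lay above CO-CM without overlap, by a margin under 1 CPM between the nearest libraries. The log2 difference between the media was 0.37 (SE 0.13, FDR 0.0427), and the same-numbered ratios were 0.36, 0.39 and 0.36. Against UNX it was 0.19 in PH-CM (FDR 0.202) and -0.18 in CO-CM (FDR 0.226), and the former was called only without UNX replicate 1 (0.30, FDR 0.0468). With the replicate block the difference between the media stayed called (0.37, FDR 3.06e-06). The blocked changes against UNX, 0.19 in PH-CM (FDR 1.41e-04) and -0.18 in CO-CM (FDR 2.53e-04), lay under the 1.2-fold limit. The call between the media was lost in 10 of 25 other settings, with FDR up to 0.234. These included leaving out UNX replicate 3, CO-CM replicate 2 or 3, or PH-CM replicate 1 or 3 (FDR 0.0552, 0.143, 0.107, 0.139 and 0.0822), or all libraries numbered 2 or 3 (0.0683 and 0.234).

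Nqo1 (chr8:107388225-107403206, minus) encodes a quinone reductase and is a widely used readout of NRF2. It was low in these cells, with 110 to 299 reads a library. In CPM it read 4.47, 2.97 and 3.143 in UNX, 2.53, 1.65 and 2.53 in CO-CM and 4.45, 2.12 and 3.09 in PH-CM. CO-CM lay below UNX without overlap, while PH-CM overlapped both. The log2 fold change was -0.65 in CO-CM against UNX (95% interval -1.27 to -0.04, FDR 0.0563), -0.13 in PH-CM against UNX (FDR 0.690) and 0.53 between the media (FDR 0.165). The first was called lower in 13 of 25 other settings. With the replicate block the first passed as lower (-0.66, FDR 0.0024) and the last as higher (0.50, FDR 0.0201). Without the libraries numbered 1 the blocked difference between the media no longer passed (0.33, FDR 0.163).

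Nfe2l2 (chr2:75675513-75704641, minus), which encodes NRF2, was the most even member. It stood at 244, 241 and 235 CPM in UNX, 275, 281 and 280 in CO-CM and 360, 358 and 367 in PH-CM. The 3 groups did not overlap and rose in that order. Nfe2l2 rose under PH-CM by 0.59 on the log2 scale against UNX (SE 0.04, FDR 2.59e-07) and by 0.38 against CO-CM (SE 0.04, FDR 4.2e-05). The difference of 0.22 under CO-CM had an FDR of 5.1e-04 and lay under the 1.2-fold limit, which it passed in 1 of 25 other settings (upper-quartile scaling, 0.28). Per length it was the second most abundant member in every group.

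Keap1 (chr9:21229730-21239361, minus) encodes the adaptor that presents NRF2 for degradation. Its levels were 71.3, 78.8 and 76.1 CPM in UNX, 62.3, 65.7 and 65.0 in CO-CM and 63.0, 71.2 and 67.3 in PH-CM. Both media lay below UNX without overlap. The log2 fold change was -0.17 in PH-CM (FDR 0.0200) and -0.23 in CO-CM (FDR 0.00420), both under the 1.2-fold limit, and 0.06 between the media (FDR 0.423). Keap1 passed that limit as lower in CO-CM in 4 of 25 other settings, namely library size alone (-0.30), no filter (-0.27), limma (-0.30) and without UNX replicate 1 (-0.28). An antisense gene, Gm16754, shares 510 bases of exon with Keap1, and since the count options name no strand, reads of the pair cannot be told apart there. Gm16754 was assigned 939 reads in all 9 libraries, against 4235 to 6540 for Keap1 in each. Assigned reads do not show how many fell in the shared bases.

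**Figure D2:**
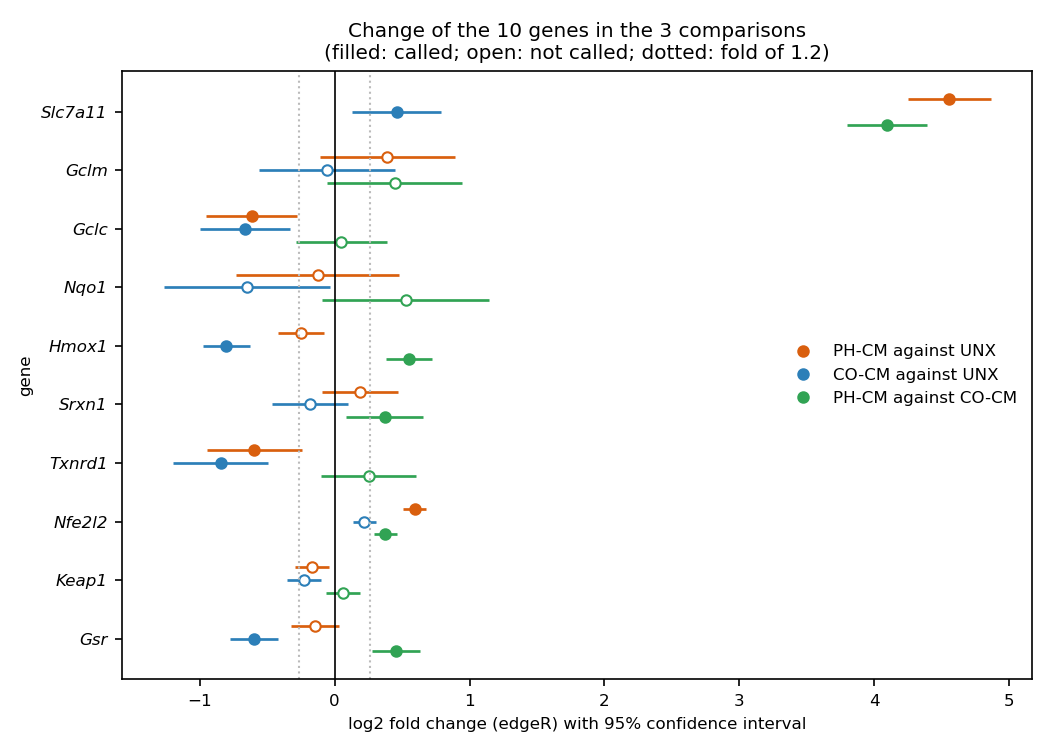
Log2 fold change of each member from edgeR (x axis) with a 95% confidence interval derived from its F statistic, in PH-CM against UNX, CO-CM against UNX and PH-CM against CO-CM. Filled points were called and dotted lines mark a fold of 1.2. Slc7a11 stands at 4.56 and 4.10 in both comparisons of PH-CM, and the other members lie between -0.85 and 0.59.

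Libraries that carry the same number deviated together, and the members showed this strongly. Replicate 1 was the highest library of its group in all 3 groups for 5 members (Gclm, Gclc, Nqo1, Srxn1 and Txnrd1), as it was for 14.9% of all genes tested. Replicate 2 was the lowest in all 3 groups for those 5 and for Slc7a11 and Gsr, as it was for 9.57% of all genes. Keap1 went the other way, with replicate 1 lowest and replicate 2 highest in every group. Within same-numbered pairs, PH-CM exceeded CO-CM in all 3 pairs for 9 members and in 2 of 3 for Gclc. The share of all genes with that pattern was not computed, so this count is a description of the members only.

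**Figure D3:**
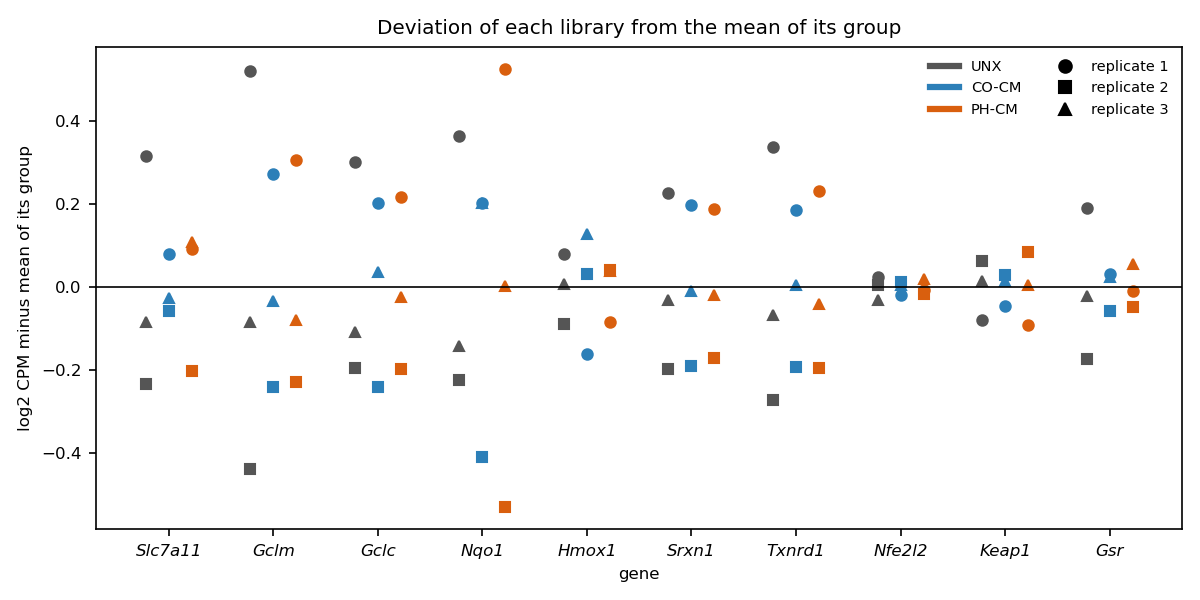
Deviation of each library's log2 CPM from the mean of its own group (y axis) for each member (x axis), with the group as colour and the replicate number as symbol. For Gclm, Gclc, Nqo1, Srxn1 and Txnrd1 the circles of replicate 1 lie at the top of each group and the squares of replicate 2 at the bottom, and Nfe2l2 hardly deviates.

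The genes whose level followed Slc7a11 most closely over the 9 libraries, by Pearson's r of log2 CPM, were Tgm2 (0.997), Vcan (0.997), Prdx6 (0.996), Nr4a2 (0.995) and Xylt2 (0.995). The 9 points share 3 groups and 3 repeats, so these are descriptions. Vcan, the proteoglycan versican, rose from 2.76 to 4.17 CPM in UNX and 4.22 to 5.27 in CO-CM to 114 to 155 in PH-CM. Tgm2, a transglutaminase, went from 89.1 to 111 CPM in UNX to 574 to 626 in PH-CM. Prdx6, a peroxiredoxin that reduces phospholipid peroxides with glutathione, stood at 73.0 to 78.3 CPM in UNX, 77.4 to 80.4 in CO-CM and 120 to 136 in PH-CM. Among the members, Nfe2l2 came nearest (0.958, rank 160 of 11949), then Gclm (0.629) and Srxn1 (0.615). Gclc had the lowest (-0.40).

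The surrounding pathways were described through 8 lists with 218 symbols, of which 214 matched a gene and 192 were tested. In PH-CM against UNX, 73 were called higher and 59 lower. In CO-CM against UNX, 69 were higher and 51 lower. In PH-CM against CO-CM, 31 were higher and 37 lower. These are 132, 120 and 68 calls, to be read against 63%, 57% and 27.1% called over all genes. By direction, 31.3% of all genes were called higher and 31.7% lower in PH-CM against UNX, and 28% and 28.9% in CO-CM against UNX. Between the media these shares were 12.2% and 15%. The counts of each list below are to be read against these shares.

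**Figure D4:**
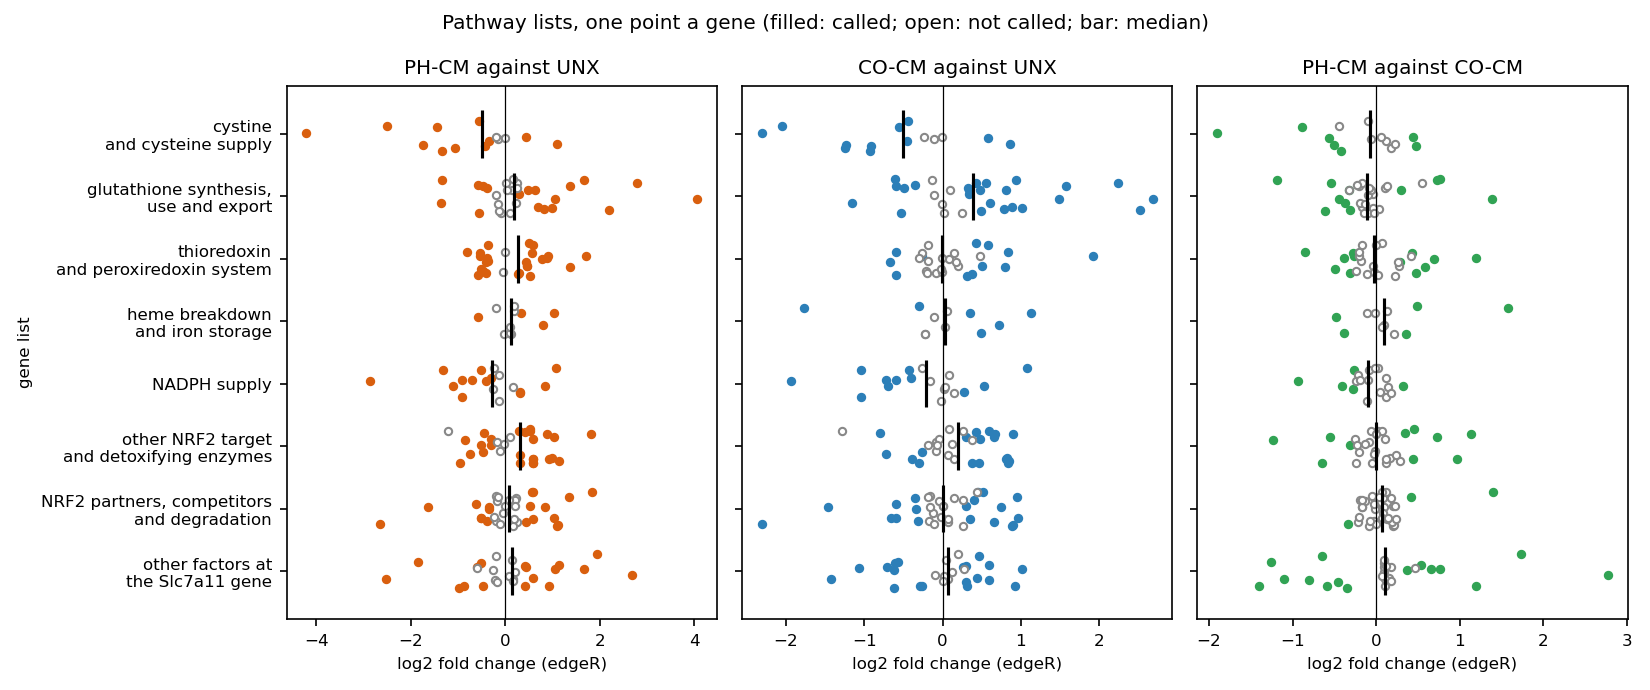
Log2 fold change (x axis) of every tested gene in 8 pathway lists (rows) in the 3 comparisons (panels), with called genes filled and the list median as a bar. The list of cystine and cysteine supply has a median of -0.49 in PH-CM and -0.50 in CO-CM against UNX, and the other medians lie between -0.28 and 0.38.

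Of the other genes of cystine and cysteine supply, 14 were tested, and 2 rose and 9 fell in PH-CM against UNX, with a median log2 fold change of -0.49. In CO-CM the count was again 2 higher and 9 lower, with a median of -0.50. Chac1, which degrades glutathione inside the cell, fell from 4.58 to 7.71 CPM in UNX to 0.793 to 1.71 in CO-CM and 0.193 to 0.443 in PH-CM, a log2 fold change of -4.21 in PH-CM. It also fell between the media (-1.91, FDR 0.00266). Slc1a4, a neutral amino acid transporter, fell by 2.5 in PH-CM and by 2.05 in CO-CM on the log2 scale. The genes that rose in PH-CM were Slc3a2 and Oplah (1.09), the oxoprolinase of glutathione turnover.

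In the list of glutathione synthesis, use and export, 12 of 30 tested genes rose and 6 fell in PH-CM, and 18 rose and 6 fell in CO-CM. Gss, the glutathione synthetase that completes the molecule after the ligase, stood at 17.5 to 19.4 CPM in UNX and 16.6 to 17.9 in PH-CM (-0.09, FDR 0.202). Gpx4, which uses glutathione against lipid peroxides, rose by 0.29 in PH-CM and 0.33 in CO-CM. The microsomal transferase Mgst2 rose from 0.185 to 0.349 CPM in UNX to 1.65 to 1.92 in CO-CM and 3.54 to 5.38 in PH-CM, and was higher in PH-CM than in CO-CM by 1.38 on the log2 scale. Gsta3, a glutathione transferase, rose by 2.78 in PH-CM and 2.24 in CO-CM, from 0.212 to 0.509 CPM in UNX. Mgst3 fell by 1.33 in PH-CM and was at -0.14 in CO-CM (FDR 0.0531), and the glutaredoxin Glrx fell by 1.35 and 1.15.

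In the thioredoxin and peroxiredoxin list, 14 of 27 genes rose and 11 fell in PH-CM, against 8 and 4 in CO-CM. The mitochondrial peroxiredoxin Prdx5 rose from 112 to 124 CPM in UNX to 190 to 220 in CO-CM and 278 to 324 in PH-CM, and differed between the media by 0.59 on the log2 scale. The methionine sulfoxide reductase Msrb1 rose by 1.72 in PH-CM and 1.92 in CO-CM. Txn1, the thioredoxin that Txnrd1 reduces, fell by 0.40 in PH-CM and was at -0.09 in CO-CM (FDR 0.172). Prdx1 was at -0.04 and -0.01 and was not called. Txnl1 fell by 0.80 and Tmx1 by 0.58 in PH-CM. The extracellular superoxide dismutase Sod3 was low, at 0.819 to 1.86 CPM in UNX and CO-CM and 2.20 to 3.67 in PH-CM, and differed by 1.2 between the media. Txnip, which binds and inhibits thioredoxin, rose by 0.47 in PH-CM and was at 0.20 in CO-CM (FDR 0.174).

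For heme breakdown and iron storage, 3 of 11 tested genes rose and 1 fell in PH-CM, against 4 and 2 in CO-CM. The ferritin heavy chain Fth1 rose by 0.81 in PH-CM and 0.72 in CO-CM. The light chain Ftl1 rose in CO-CM by 0.48 and was at 0.10 in PH-CM (FDR 0.124), lower than in CO-CM by 0.38. Both ferritin genes have near-identical pseudogenes, so the assignment of their reads is uncertain. The heme exporter Flvcr1 rose by 1.03 and 1.13. The biliverdin reductases Blvra and Blvrb, which act after Hmox1, were at -0.01 and 0.18 in PH-CM and were not called. Cd163, the receptor for haptoglobin-bound hemoglobin, stood at 39.1 to 42.7 CPM in UNX, 10.6 to 14.0 in CO-CM and 34.2 to 37.5 in PH-CM. It fell under CO-CM by 1.76 and was higher in PH-CM than in CO-CM by 1.58. Lrp1, a receptor for hemopexin-bound heme among many ligands, fell by 0.58 in PH-CM.

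In the list of NADPH supply, 4 of 18 genes rose and 9 fell in PH-CM, and 3 rose and 8 fell in CO-CM. G6pdx, the first enzyme of the pentose phosphate pathway, was at -0.13 in PH-CM and 0.09 in CO-CM and was not called. Taldo1 of the same pathway rose by 0.85 in PH-CM and 0.53 in CO-CM, and the cytosolic dehydrogenase Idh1 by 1.07 and 1.08. Me1, the cytosolic malic enzyme, fell by 0.69 and 0.59. The folate enzyme Mthfd2 fell from 86.3 to 136 CPM in UNX to 21.8 to 35.3 in CO-CM and 12.9 to 18.1 in PH-CM, by 2.87 on the log2 scale in PH-CM and by 0.94 between the media. Mthfd1 fell by 1.31 and 1.04.

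Among 30 other NRF2 targets and detoxifying enzymes, 17 rose and 8 fell in PH-CM, and 13 rose and 5 fell in CO-CM. Lpcat2, which remodels phospholipids, rose from 24.3 to 31.5 CPM in UNX to 40.4 to 44.9 in CO-CM and 91.3 to 96.8 in PH-CM. Procr, the endothelial protein C receptor, rose by 1.14 and 0.85. Pir fell by 0.94 and 0.30, and the epoxide hydrolase Ephx1 fell by 0.85 in PH-CM and was lower there than in CO-CM by 1.23.

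Of 35 tested partners, competitors and degradation factors of NRF2, 11 rose and 8 fell in each medium, and 2 rose and 1 fell between the media. Over all genes 31.3% rose and 31.7% fell in PH-CM, 28% and 28.9% in CO-CM, and 12.2% and 15% between the media. Bach1, which represses the same elements when heme is low, rose from 96.7 to 100 CPM in UNX to 153 to 178 in CO-CM and 168 to 181 in PH-CM, by 0.84 in PH-CM and 0.75 in CO-CM. Sqstm1 (p62), which can draw KEAP1 away, rose by 0.45 and 0.66. Of the small MAF genes that pair with NRF2, Mafk was at 0.22 and 0.14 without a call, Mafg at -0.18 in PH-CM without a call and lower by 0.36 in CO-CM, and Maff lower by 0.50 and 0.59. Cul3, the scaffold of the KEAP1 ligase, was at -0.04 and -0.13, and the related factor Nfe2l1 at -0.01 and 0.00. The related factor Nfe2 rose from 0.525 to 0.994 CPM in UNX to 2.82 to 3.06 in PH-CM and differed by 1.40 between the media. Rxra, a nuclear receptor that can bind NRF2, rose by 1.36 and 0.94. Brca1 fell by 2.64 and 2.31 and its partner Palb2 by 1.63 and 1.46.

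The last list held 27 other genes, namely factors that act at the Slc7a11 gene, the Eif2ak kinase genes upstream of ATF4, and readouts of ATF4. In PH-CM against UNX 10 rose and 7 fell, and in CO-CM 10 rose and 9 fell. Between the media 7 were higher and 8 lower in PH-CM. ATF4, a factor of the amino acid response, fell in mRNA from 299 to 349 CPM in UNX to 176 to 237 in CO-CM and 154 to 177 in PH-CM, by 0.97 in PH-CM and 0.63 in CO-CM. ATF4 is controlled largely at translation, so its mRNA is not a measure of its activity either. Asns, a widely used ATF4 target, fell by 2.52 and 1.42 and was lower in PH-CM than in CO-CM by 1.10. Fosl2, an AP-1 subunit, stood at 51.3 to 62.5 CPM in UNX, 45.9 to 60.7 in CO-CM and 360 to 389 in PH-CM. It rose by 2.69 in PH-CM against UNX and by 2.78 against CO-CM, and was at -0.09 in CO-CM (FDR 0.436). Fos, which encodes another subunit, rose by 1.94 in PH-CM and was at 0.20 in CO-CM. Ets1 fell by 1.83 in PH-CM and by 0.57 in CO-CM.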

How the data were processed

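The submitters aligned paired reads of 9 mRNA libraries to GRCm38 with STAR and assigned them to genes with featureCounts (1.6.2). The deposited count table holds whole read counts; per the file headers the counting used exon features by gene ID and named no option for read pairs or strand, so mates were counted singly. The authors also deposited RPKM values, computed with edgeR (3.14), used here for levels per length. 3 further deposited tables, which hold the authors' own fold changes, p-values and FDR, were not used. Genes above 1 CPM in at least 3 libraries were kept (11950), scaled by TMM and fitted with edgeR (4.0.16, R 4.3.3) quasi-likelihood models over all 9 libraries, without a replicate block, with Benjamini-Hochberg FDR over all genes, and calls needed FDR 0.05 and a 1.2-fold change. Members and lists were chosen with earlier results of these data known. Named genes were all members, from each list the 2 called genes that rose most and the 2 that fell most in PH-CM against UNX and the called gene with the largest change between the media, a fixed set of core pathway genes, and the 5 genes most like Slc7a11. Osgin1 and Hif1a were named after their values were seen. The replicate numbers paired the libraries: deviations from the group means correlated at 0.276 to 0.484 in all 9 same-numbered pairs and at -0.376 to 0.0423 in the 18 others. Replicates differed by more than sampling noise. The p-values of the main fit measure the spread of libraries within groups. That spread includes the shifts that same-numbered libraries share, which only the replicate block takes out. Alternatives used DESeq2 (1.42.0), limma (3.58.1), other scalings, filters and folds, halved counts, the replicate block and left-out libraries. Scripts were tested on simulated data. Coordinates are from GENCODE M21 and may differ from the release used for counting. Promoters are RefSeq's.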

Additional observations from a re-analysis of the deposited data

How the results depend on the processing

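Each result was recomputed under up to 27 alternatives. Requiring a fold of at least 2 left 2153, 1655 and 612 of all genes called in PH-CM against UNX, CO-CM against UNX and PH-CM against CO-CM, against 7534, 6806 and 3244, and 39, 23 and 14 genes of the wider lists. It left 1, 0 and 1 members, the 1 being Slc7a11. Leaving out libraries gave 6776 to 7558, 6109 to 6757 and 1900 to 3377 genes called, 124 to 135, 105 to 120 and 44 to 71 of the wider lists, and 3 to 6, 4 to 6 and 4 to 6 members. The low values between the media, 1900 and 44, came without all libraries numbered 3. With the replicate block 5, 6 and 7 members were called beside 7714, 7037 and 3632 of all genes, and 5, 6 and 6 beside 7415, 6663 and 3716 of 11675 when the libraries numbered 1 were also left out, an alternative chosen after seeing the data. The block added Gclm in PH-CM against UNX, Nqo1 in CO-CM against UNX, and both between the media, and changed no other call of a member. Signs changed for 3 member differences that were not called. Gclm in CO-CM against UNX, -0.06, became 0.010 with upper-quartile scaling, 0.23 without UNX replicate 1, 0.06 without CO-CM replicate 2, and 0.09 without the libraries numbered 1 (0.093 with the block), and ran from -0.27 to 0.23 over left-out libraries. Gclc between the media, 0.05, became -0.063 without CO-CM replicate 2 and -0.058 without PH-CM replicate 1, with 0.16 the highest. Nqo1 in PH-CM against UNX, -0.13, became 0.07 without UNX replicate 1 and 0.11 without PH-CM replicate 2, with -0.43 the lowest. The cause was not tested. No scaling moved the median of all genes by more than 0.070 on the log2 scale. In CO-CM against UNX, 3892 genes were higher and 3015 lower with upper-quartile scaling and 2826 and 3999 by library size alone, against 3351 and 3455, and members were 2 and 4, and 1 and 6. Of 750 member values under alternatives, 683 kept direction and side of the threshold. Nqo1 and, outside PH-CM, Slc7a11 had under 300 reads a library, and halving all counts ended no member call.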

Other observations

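In the 8 pathway lists, 3 of the 192 tested genes (1.56%) were called in opposite directions under the 2 media, beside 155 of all 11950 genes tested (1.3%) and 0 of the 10 members. Osgin1, an oxidative stress-induced growth inhibitor known as an NRF2 target, stood at 12.2 to 13.4 CPM in UNX, 9.44 to 10.1 in CO-CM and 17.9 to 20.6 in PH-CM. Its log2 fold change was 0.58 in PH-CM (FDR 2.91e-05) and -0.39 in CO-CM (FDR 7.52e-04) against UNX, and the 3 groups did not overlap. Hif1a, the oxygen-regulated factor, stood at 92.3 to 102 CPM in UNX, 72.2 to 93.9 in CO-CM and 177 to 199 in PH-CM, with 0.94 in PH-CM and -0.27 in CO-CM. Its UNX and CO-CM libraries overlapped. Atf3, a stress-induced factor, went the other way, at 111 to 141 CPM in UNX, 198 to 267 in CO-CM and 83.6 to 99.5 in PH-CM, with -0.47 in PH-CM and 0.93 in CO-CM. All 3 differed between the media directly, by 0.97, 1.2 and -1.40 in PH-CM against CO-CM.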
